A study of Mus musculus with 5 samples.

Results

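The cGAS-STING pathway detects DNA in the cytosol, where it is normally absent. The enzyme cGAS binds that DNA and makes the cyclic dinucleotide cGAMP, cGAMP binds the adaptor STING on the endoplasmic reticulum, and STING moves to the Golgi, where the kinase TBK1 phosphorylates it and the transcription factor IRF3, which then induces type I interferon. Nucleases and hydrolases lower the amount of DNA or cGAMP, and other proteins bind or degrade STING. The genes described here are 10 core components and regulators of that pathway, chosen by their symbols among the 54532 gene IDs of a kidney read count table: Cgas, Ddx41, Tmem173 (the symbol of the STING gene in the annotation used), Tbk1, Ikbke, Trex1, Samhd1, Enpp1, Rnf5 and Nlrc3. All 10 were listed, and 9 had counts.

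Kidney RNA was sequenced from wild-type male C57BL/6J mice, an inbred strain, at 8 weeks of age. There were 2 libraries from mice given DMXAA intraperitoneally for 3 days (10 mg/kg per daily dose), and 3 libraries from mice given vehicle by the same route and schedule; the labelled time of all is day 3. DMXAA is a small molecule that binds and activates mouse STING, so the comparison shows how transcripts of the pathway stood after repeated doses of a compound that acts on the adaptor. The labels number the libraries as replicates and do not tie each to its own mouse. The p-values thus measure the spread between these libraries, which may be technical.

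In edgeR with its default expression filter, no transcript of the pathway core was called different between the groups, and neither was any other tested gene. Of the 9 counted genes, 0 were called by edgeR's quasi-likelihood test at a Benjamini-Hochberg adjusted p below 0.05, and 0% of the 16226 tested genes were. At an unadjusted p below 0.05 edgeR counted 0 of the 9 genes, beside 6.55% of all tested genes. At an adjusted p below 0.05 DESeq2 called 0 of the 9, beside 54 genes (0.296%) of all it tested. The groups overlapped for all 9 genes, while 26% of all tested genes had groups that did not overlap. The median log2 fold change (DMXAA over vehicle) was 0.07 over the 9 genes and -0.01 over all tested genes. The 95% interval of the fold change lay within 2-fold in both directions for 7 genes and within 1.5-fold for 5. It reached 2-fold for 2 genes of low count, Cgas and Nlrc3.

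The libraries held 17667490 to 20264228 counts. All 12 kidney markers were counted in every library, with summed levels of 27999 and 27964 CPM (read counts scaled by TMM-normalised library size) in DMXAA kidneys and 27351, 28342 and 23778 CPM in vehicle kidneys. Vehicle library 1 stood apart by its adipose and urothelial transcripts. Of the 8 adipose markers, Fabp4, which endothelial cells also express, was at 47.3 and 55.0 CPM in the DMXAA libraries and at 271, 27.3 and 41.7 CPM in the vehicle libraries. The other 7 summed to 0.222 and 0.745 CPM in DMXAA and to 460.1, 0.398 and 9.03 CPM in vehicle, and Adipoq was at 0 in both DMXAA libraries. The 8 urothelial markers summed to 11.5 and 7.45 CPM in DMXAA and 143, 2.78 and 19.8 CPM in vehicle. Vehicle library 2 stood apart from the other vehicle libraries by its interferon-induced transcripts, given with the interferon output list. In whole-tissue RNA, fewer cells of a type and less RNA per cell cannot be told apart.

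The 10 genes spanned a wide range of levels. Per kilobase of merged exon, and averaged over the 5 libraries, Rnf5 was the most abundant (40.8 ± 4.86 CPM per kb, SD, n = 5), followed by Ddx41 (14.9 ± 0.729), Tbk1 (10.9 ± 1.28), Enpp1 (5.34 ± 0.655), Samhd1 (4.97 ± 0.724), Tmem173 (1.86 ± 0.377), Ikbke (0.556 ± 0.118), Nlrc3 (0.358 ± 0.121) and Cgas (0.286 ± 0.0675), all in CPM per kb with n = 5. The ranges of neighbours overlapped between Enpp1 and Samhd1, between Ikbke and Nlrc3 and between Nlrc3 and Cgas. Per kilobase of the longest annotated transcript, Samhd1 (11.6 CPM per kb) stood above Enpp1 (8.08 CPM per kb), and the other genes kept their places. On these averages the DNA sensor gene Cgas was the least abundant counted transcript of the group, with a range that overlapped that of Nlrc3. The ubiquitin ligase gene Rnf5 was the most abundant.

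**Figure D1:**
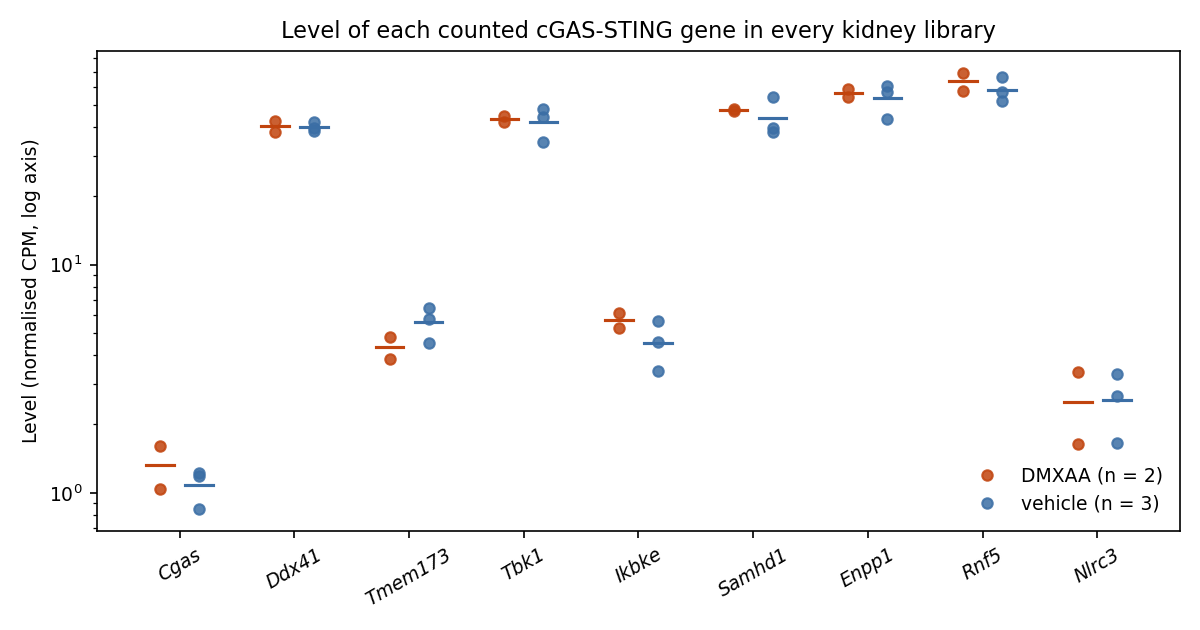
Level of each of the 9 counted genes in every library, in normalised CPM on a log axis, with DMXAA (n = 2) left of vehicle (n = 3) and a bar at each group mean. The points of the groups overlap for every gene; Trex1, at 0 in all 5 libraries, cannot be drawn on this axis.

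Trex1, whose product is the main exonuclease that degrades DNA in the cytosol, had 0 counts in all 5 libraries. A count of 0 allows up to 0.166 and 0.149 CPM in the DMXAA libraries and 0.162, 0.170 and 0.166 CPM in the vehicle libraries (3 counts, a one-sided upper limit for counting error alone). That limit holds for counts assigned to Trex1, not for its transcripts, because of where the gene lies. Trex1 (ENSMUSG00000049734) spans chromosome 9 from 109057933 to 109059734 on the minus strand of mm10. All 1147 of its exon bases, 100% of them, are also exon bases of Atrip, a gene of the DNA damage checkpoint transcribed from the same strand. The opening 120 bases of the Trex1 coding region (chr9:109058802-109058921, minus strand, GENCODE M21) are shown because the same letters stand in 3 of the 9 annotated Atrip transcripts, with the start codon in capitals.
Trex1: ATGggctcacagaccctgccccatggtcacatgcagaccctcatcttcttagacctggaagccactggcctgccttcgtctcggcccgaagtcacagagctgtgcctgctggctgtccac
The whole coding region, 942 bases in 1 exon, stands in 2 of those Atrip transcripts. A read from it therefore matches both genes, also where strand is known.

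**Figure D2:**
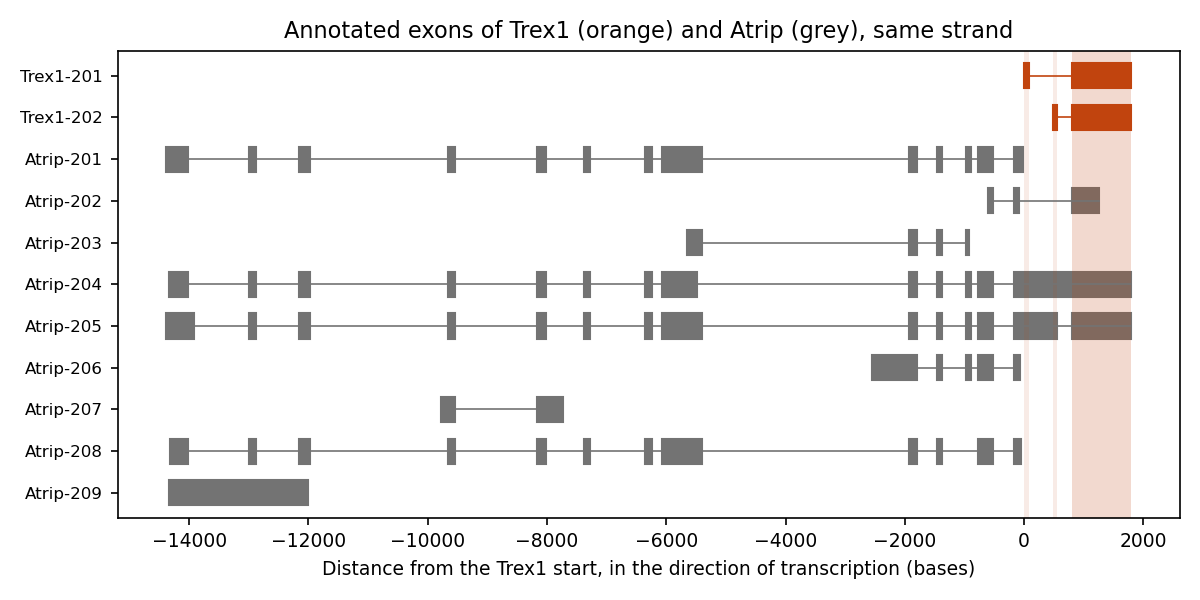
Annotated exons (GENCODE M21) of the Trex1 transcripts (orange, top) and the 9 Atrip transcripts (grey), drawn against distance in bases from the Trex1 start in the direction of transcription. Shading marks the Trex1 exons, all 1147 bases of which lie in exons of Atrip-204, Atrip-205 or Atrip-202.

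How reads that fall on both genes were counted is not given in the sources used here. Across the table, 133 protein-coding genes had every exon base shared with another gene on the same strand, and 120 of them (90.2%) had 0 counts in all 5 libraries. The share was 13.7% of the 1608 protein-coding genes that shared some exon bases and 21.2% of the 20254 that shared none. Atrip itself had 225 and 248 counts in the DMXAA libraries and 221, 167 and 177 counts in the vehicle libraries, or 12.5 and 12.3 CPM in DMXAA and 11.9, 9.48 and 9.80 CPM in vehicle. Its 2 DMXAA values lay above the 3 vehicle values by a small margin, and edgeR did not call it (log2 fold change 0.25, SE 0.16, adjusted p = 0.778). Whether any of the Atrip counts came from Trex1 transcripts is not known, since the treatment of shared reads is not given. None of the other 9 genes shared an exon base with a gene on the same strand. On the opposite strand, annotated transcripts covered 201 of the 4126 exon bases of Cgas, 467 of the 2687 of Ddx41, 366 of the 1483 of Rnf5, and 159 and 65 of the 9018 of Ikbke. Since the strand setting is not given, reads from those stretches cannot be told apart.

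Among the sensors, Cgas (ENSMUSG00000032344, chromosome 9 from 78430526 to 78443237) was the rarest counted gene, with 29 and 21 counts in the DMXAA libraries and 22, 15 and 22 counts in the vehicle libraries. In CPM it was at 1.61 and 1.04 in DMXAA and at 1.19, 0.852 and 1.22 in vehicle. DMXAA library 1 was the highest, DMXAA library 2 lay inside the vehicle range, and the 95% counting intervals of all 5 libraries overlapped. The log2 fold change was 0.28 (SE 0.38, edgeR adjusted p = 0.878), with a 95% interval of the fold from 0.650 to 2.27. It was -0.05 without DMXAA library 1 and 0.56 without DMXAA library 2; in such fits the remaining DMXAA library is assumed to vary as the vehicle libraries do.

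Ddx41 (ENSMUSG00000021494, chromosome 13 from 55530410 to 55536658) encodes a DEAD-box helicase that works in RNA splicing and has been described as a sensor of DNA and cyclic dinucleotides. It had the tightest values of the group, at 38.2 and 42.3 CPM in DMXAA and 39.8, 42.1 and 38.4 CPM in vehicle. All 5 libraries lay within the same narrow band. The fold change had a 95% interval of 0.857 to 1.18 around a log2 estimate of 0.01 (SE 0.10), the narrowest of the 9 genes.

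Tmem173 (ENSMUSG00000024349, chromosome 18 from 35733679 to 35740554), the gene of STING itself, was at 4.82 and 3.88 CPM in DMXAA kidneys and at 4.54, 5.79 and 6.48 CPM in vehicle kidneys. The DMXAA values were at the low end, and vehicle library 1 lay between them. The group means were 4.35 ± 0.669 CPM in DMXAA (SD, n = 2) and 5.60 ± 0.986 CPM in vehicle (SD, n = 3). Its log2 fold change, -0.37 (SE 0.24, edgeR adjusted p = 0.784), was the lowest of the 9. The 95% interval of the fold ran from 0.520 to 1.16. The estimate stayed below 0 in all 14 alternative analyses, from -0.53 without DMXAA library 1 to -0.22 without DMXAA library 2. Without vehicle library 1 it was -0.50 (unadjusted p = 0.0617, edgeR), the smallest unadjusted p among its alternatives.

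The 2 kinases that act on STING and IRF3 differed in level. Tbk1 (ENSMUSG00000020115, chromosome 10 from 121546455 to 121586787), the kinase recruited by the STING tail, was at 42.0 and 44.6 CPM in DMXAA and at 34.6, 47.9 and 44.4 CPM in vehicle. Both DMXAA libraries lay inside the vehicle range, which vehicle library 1 set at its low end. The log2 fold change was 0.03 (SE 0.15), with a fold interval of 0.803 to 1.31, and it was -0.10 without vehicle library 1.

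Ikbke (ENSMUSG00000042349, chromosome 1 from 131254343 to 131279606) encodes IKK-epsilon, the relative of TBK1 that can stand in for it and whose expression is inducible. It was at 6.15 and 5.27 CPM in DMXAA and at 3.40, 4.60 and 5.65 CPM in vehicle. DMXAA library 1 was the highest of the 5, and vehicle library 3 exceeded DMXAA library 2. Its log2 fold change, 0.33 (SE 0.26, edgeR adjusted p = 0.803), was the highest of the 9 genes. The estimate was above 0 in all 14 alternatives, at 0.15 without vehicle library 1 and 0.51 without vehicle library 3, and the fold interval ran from 0.811 to 1.94.

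**Figure D3:**
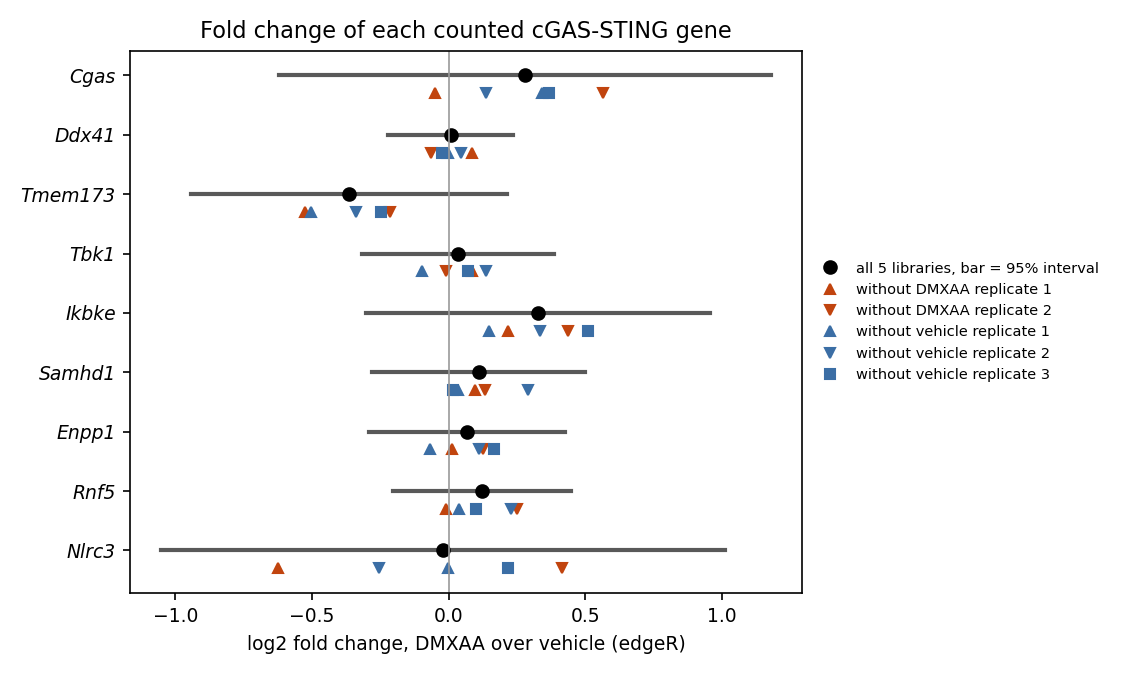
Log2 fold change (DMXAA over vehicle, edgeR) of the 9 counted genes, as a black point with its 95% interval from all 5 libraries, and as coloured marks when each library was left out. Every interval crosses 0; the marks of Tmem173 all lie below 0, those of Ikbke and Samhd1 all above 0, and those of the other genes fall on both sides of 0.

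Among the enzymes that limit the ligand, Samhd1 (ENSMUSG00000027639, chromosome 2 from 157097533 to 157135265) encodes a triphosphohydrolase that depletes deoxynucleotides. It was at 48.2 and 46.9 CPM in DMXAA and at 39.7, 54.3 and 38.1 CPM in vehicle. The DMXAA libraries lay above vehicle libraries 1 and 3 and below vehicle library 2. Interferon-induced transcripts were higher in that library than in the other vehicle libraries. By summed level they were higher still in both DMXAA libraries, but not once Irf7 was left out. Over all libraries the log2 fold change was 0.11 (SE 0.16, edgeR adjusted p = 0.891). Without vehicle library 2 it was 0.29 (SE 0.08, unadjusted p = 0.0111, adjusted p = 0.355, edgeR), and over all 14 alternatives the adjusted p lay between 0.355 and 1. This was the 1 case among all alternatives in which any of the 9 genes had an unadjusted p below 0.05.

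Enpp1 (ENSMUSG00000037370, chromosome 10 from 24637914 to 24712159) encodes the membrane phosphodiesterase that hydrolyses extracellular cGAMP and also makes pyrophosphate from ATP. It was at 58.6 and 54.0 CPM in DMXAA and at 43.6, 56.8 and 60.7 CPM in vehicle. Vehicle library 1 was again the lowest, and the other 4 libraries lay close together. The log2 fold change was 0.07 (SE 0.15), and -0.07 without vehicle library 1.

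Rnf5 (ENSMUSG00000015478, chromosome 17 from 34601091 to 34603690) encodes an E3 ubiquitin ligase of the endoplasmic reticulum that marks STING for degradation. It was at 69.3 and 57.8 CPM in DMXAA and at 52.0, 66.5 and 56.7 CPM in vehicle. DMXAA library 1 was the highest of the 5, and DMXAA library 2 lay inside the vehicle range. The log2 fold change was 0.12 (SE 0.14), with a fold interval of 0.868 to 1.36.

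Nlrc3 (ENSMUSG00000049871, chromosome 16 from 3945007 to 3976632) encodes an NLR-family protein that hinders the association of STING with TBK1 and is abundant in T cells. It was at 3.38 and 1.64 CPM in DMXAA and at 2.65, 1.65 and 3.32 CPM in vehicle. The 2 DMXAA libraries held the highest and the lowest value of the 5. The group means were 2.51 ± 1.23 CPM in DMXAA (SD, n = 2) and 2.54 ± 0.844 CPM in vehicle (SD, n = 3). The log2 fold change of -0.02 (SE 0.43) was -0.62 without DMXAA library 1 and 0.41 without DMXAA library 2, and the fold interval ran from 0.482 to 2.01.

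Nlrc3 and Cgas both had their highest values in DMXAA library 1 and vehicle library 3 and their lowest in DMXAA library 2 and vehicle library 2. For Cgas this order was weak: vehicle libraries 1 and 3 held 22 counts each (1.19 and 1.22 CPM), and all its counting intervals overlapped. Leukocyte markers were unevenly spread over the same libraries. The 15 T and NK cell markers, all 15 of them counted in every library, summed to 27.9 and 18.1 CPM in DMXAA and to 18.5, 19.2 and 29.8 CPM in vehicle. Of these sums, Gzma gave 5.49 and 6.16 CPM in DMXAA and 1.78, 1.87 and 2.49 CPM in vehicle. The 14 macrophage and monocyte markers, also counted in every library, summed to 278 and 249 CPM in DMXAA and to 225, 217 and 325 CPM in vehicle. The 10 B cell and plasma cell markers summed to 23.6 and 7.95 CPM in DMXAA and to 22.2, 17.3 and 42.3 CPM in vehicle, with Ighd at 0 in DMXAA library 1. The 8 dendritic cell markers summed to 26.3 and 22.1 CPM in DMXAA and to 24.8, 32.0 and 31.8 CPM in vehicle. The 7 neutrophil markers summed to 5.60 and 7.40 CPM in DMXAA and to 4.10, 21.5 and 52.7 CPM in vehicle. DMXAA library 1 and vehicle library 3 were the highest libraries in the T and NK cell, macrophage and B cell lists, but DMXAA library 1 was not among the highest in the dendritic cell and neutrophil lists. The part of these cells in the values of Nlrc3 and Cgas was not tested.

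**Figure D4:**
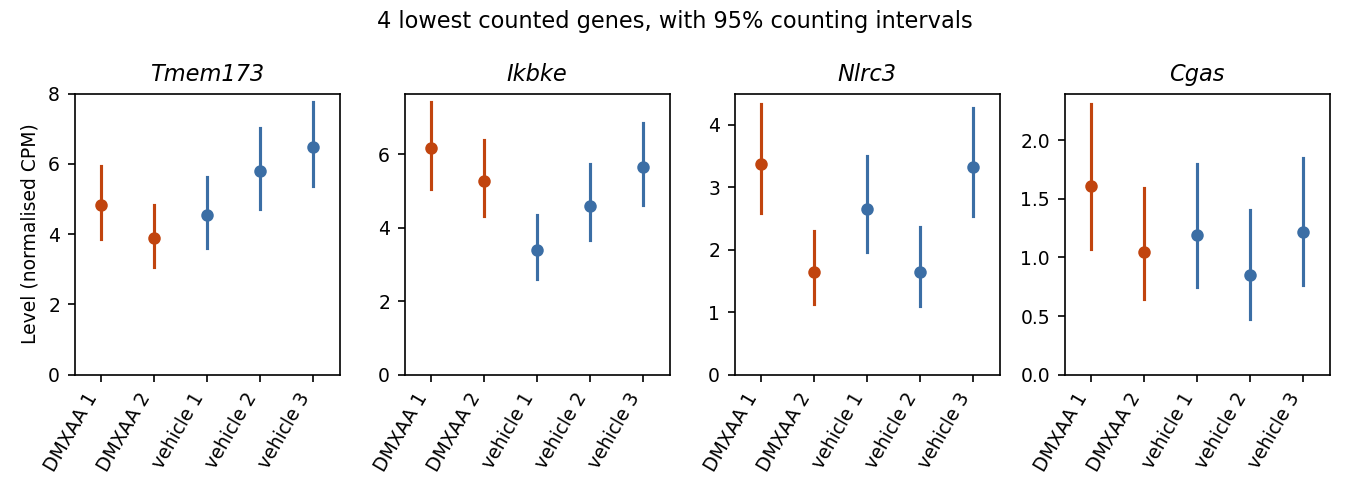
Levels of the 4 least abundant counted genes in each library, in normalised CPM, with 95% exact Poisson intervals that cover counting error only (DMXAA orange, left; vehicle blue). The intervals of all 5 libraries overlap for Cgas only. For Nlrc3, those of DMXAA library 1 (3.38 CPM) and DMXAA library 2 (1.64 CPM) are among those that do not. For Tmem173, DMXAA library 2 (3.88 CPM) and vehicle library 3 (6.48 CPM) have separate intervals. For Ikbke, that of vehicle library 1 (3.40 CPM) is apart from those of DMXAA library 1 (6.15 CPM) and vehicle library 3 (5.65 CPM).

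The 3 tested genes whose levels ran most like those of Tmem173 over the 5 libraries were Hpcal4, Fam213b and Rcan2, by the root mean square difference of log2 CPM centred on each gene's mean (0.04, 0.05 and 0.05). Those most like Cgas were Gm26840, Gm43863 and Kcnf1 (0.03, 0.04 and 0.05). With 5 libraries many genes come close: 1408 others lay within 0.2 of Tmem173 and 601 within 0.2 of Cgas.

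Other genes of the pathway were taken from 6 lists: STING trafficking, enzymes that modify STING or cGAS, cGAS partners, cyclic dinucleotide transport, DNA clearance, and kinase scaffolds and downstream factors. They held 95 genes in the table, 91 of them tested. None was called by edgeR or DESeq2. The median log2 fold change was -0.01, with 41 estimates above 0 and 50 below, where 46.9% of all tested genes were above 0. At an unadjusted p below 0.05 there were 6 genes with higher levels and 3 with lower, beside 3.89% and 2.65% of all tested genes. In 17 genes both DMXAA libraries lay above every vehicle library and in 13 below, beside 13.7% and 12.3% of all tested genes.

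Among the downstream factors, Irf3, the transcription factor that TBK1 phosphorylates, was at 41.7 and 40.6 CPM in DMXAA and at 50.3, 53.3 and 46.5 CPM in vehicle. Both DMXAA values lay below all vehicle values (log2 fold change -0.28, SE 0.10, edgeR adjusted p = 0.742). Ticam1, the adaptor TRIF of Toll-like receptor signalling, was at 25.6 and 26.4 CPM in DMXAA and at 19.9, 22.4 and 20.7 CPM in vehicle. Traf6, a ubiquitin ligase that leads from receptors to NF-kB, was at 46.8 and 45.1 CPM in DMXAA and at 38.2, 36.9 and 39.2 CPM in vehicle. The adaptor and the ligase were thus both slightly higher in every DMXAA library, by 0.31 and 0.27 on the log2 scale (SE 0.10 and 0.09), with adjusted p of 0.740 and 0.724 in edgeR.

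Of the 22 tested enzymes that modify STING or cGAS, 2 were higher and 2 lower at an unadjusted p below 0.05, beside 3.89% and 2.65% of all tested genes. Usp18, an interferon-induced protease that removes ISG15 and recruits a deubiquitinase to STING, was at 11.7 and 13.4 CPM in DMXAA and at 5.99, 9.77 and 6.09 CPM in vehicle. Its log2 fold change of 0.79 (SE 0.25, edgeR adjusted p = 0.724) lay between 0.66 and 1.06 when each library was left out. Insig1, an anchor of the endoplasmic reticulum that holds back sterol synthesis, was at 42.8 and 44.3 CPM in DMXAA and at 52.9, 74.3 and 59.9 CPM in vehicle. Mul1, a mitochondrial ubiquitin ligase, was at 63.1 and 62.6 CPM in DMXAA and at 46.9, 52.9 and 56.3 CPM in vehicle. Zdhhc18, a palmitoyltransferase that acts on cGAS, was at 22.0 and 23.5 CPM in DMXAA and at 27.1, 27.1 and 29.6 CPM in vehicle. The groups did not overlap for any of these 4 genes, as they did not for 26% of all tested genes.

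Of the 12 tested transport genes 1 and of the 15 tested clearance genes 1 had an unadjusted p below 0.05, close to the 6.55% of all tested genes. Lrrc8d, a subunit of the volume-regulated anion channels that carry cGAMP, was at 107 and 122 CPM in DMXAA and at 97.0, 95.1 and 94.0 CPM in vehicle. Adar, which edits double-stranded RNA, was at 39.5 and 40.9 CPM in DMXAA and at 32.7, 35.4 and 28.6 CPM in vehicle. Both had groups that did not overlap, with log2 fold changes of 0.26 (SE 0.09) and 0.32 (SE 0.11) and an adjusted p of 0.742 each in edgeR. None of the 14 tested trafficking genes and none of the 8 cGAS partners had an unadjusted p below 0.05 in edgeR. The estimates of the 9 genes below that threshold kept their sign in all 14 alternatives. The number of genes below it moved together with that over all tested genes. It was 1 higher and 0 lower without DMXAA library 2 and 3 and 0 without DMXAA library 1, where 256 and 569 of all tested genes were below it, against 1062 with all libraries. Leaving out a vehicle library gave 7 and 5 for library 1, 11 and 4 for library 2, and 3 and 4 for library 3, where 1528, 1893 and 846 of all tested genes were below it. With the replicate number as a block there were 2 and 3, with a length and GC correction 3 and 4, and with no expression filter 8 and 5.

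**Figure D5:**
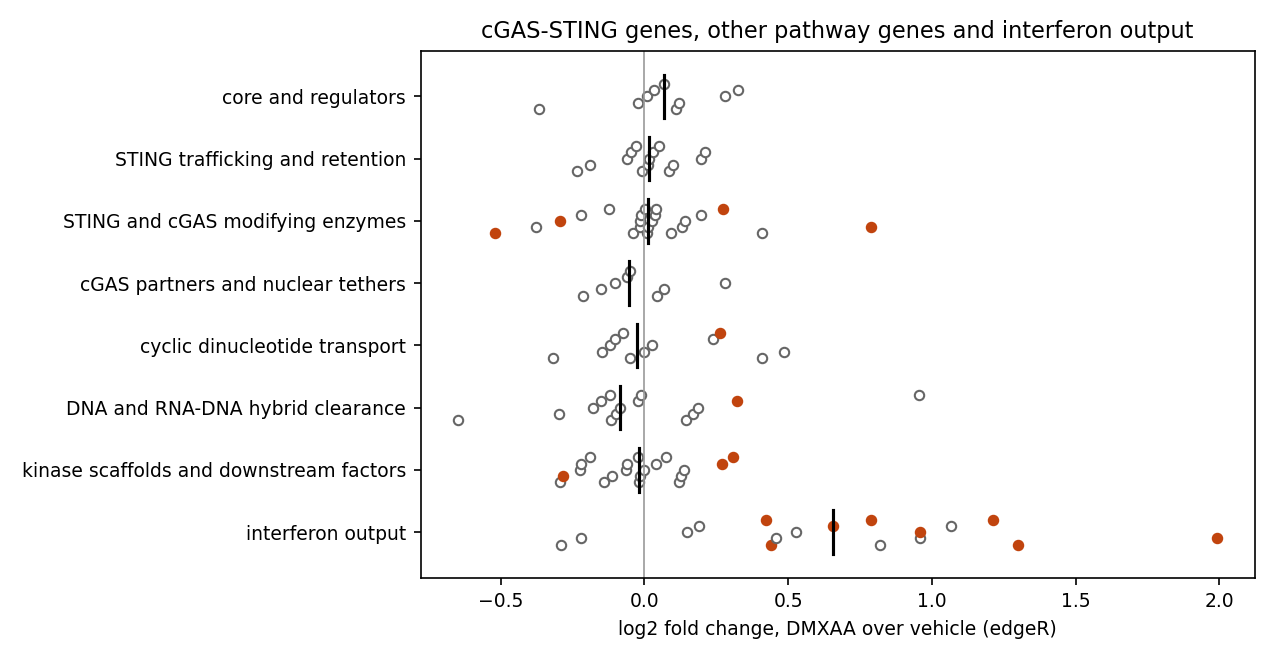
Log2 fold change (DMXAA over vehicle, edgeR) of each tested gene, by list, with filled points for an unadjusted p below 0.05 and a bar at each list's median. The core genes lie between -0.37 and 0.33 with no filled point, and the interferon output list reaches 1.99.

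Interferons and the genes they induce are the known output of STING signalling. The interferon genes Ifnb1, Ifna4, Ifnl2 and Ifnl3 had 0 counts in every library. Of the other 17 genes of the interferon output list, which was drawn up with earlier results of these data known, 15 had estimates above 0, beside 46.9% of all tested genes, with a median log2 fold change of 0.66. At an unadjusted p below 0.05, 8 were higher, beside 3.89% of all tested genes, and in 10 both DMXAA libraries lay above every vehicle library, beside 13.7%. edgeR called 0 of them and DESeq2 called 3, beside 0.296% of its tested genes. Irf7, the regulator of interferon-alpha genes, was at 342 and 477 CPM in DMXAA and at 48.7, 192 and 68.3 CPM in vehicle. Rsad2, an antiviral radical-SAM enzyme, was at 59.4 and 67.2 CPM in DMXAA and at 38.0, 40.3 and 42.2 CPM in vehicle (DESeq2 adjusted p = 0.0016, edgeR adjusted p = 0.535). Isg15, a ubiquitin-like modifier, was at 20.8 and 22.5 CPM in DMXAA and at 7.51, 20.6 and 8.81 CPM in vehicle. Neither of Irf7 and Isg15 was called by edgeR (log2 fold change 1.99, SE 0.54, adjusted p = 0.724, and 0.82, SE 0.41, adjusted p = 0.750). When each library was left out, the estimates ran from 1.65 to 2.81 for Irf7 and from 0.56 to 1.41 for Isg15, in both cases lowest without vehicle library 1 and highest without vehicle library 2.

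Vehicle library 2 carried some of the same transcripts at levels like those in DMXAA. The interferon output list summed to 885 and 1074 CPM in DMXAA and to 366, 811 and 392 CPM in vehicle. Irf7 gave 342 and 477 CPM of the DMXAA sums and 48.7, 192 and 68.3 CPM of the vehicle sums. Without Irf7, the list summed higher in vehicle library 2 than in either DMXAA library. The chemokine gene Cxcl10 was at 22.5 and 14.5 CPM in DMXAA and at 5.18, 48.1 and 11.3 CPM in vehicle, and its log2 fold change of -0.22 was 1.16 without vehicle library 2. Of the core genes, Samhd1 and Tbk1 had their highest value of the 5 in that library, and Cgas its lowest.

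The promoters of the core genes were searched for motifs of interferon and NF-kB signalling. RefSeq windows (GRCm38.p6, 250 bases before to 50 after the start) existed for 8 of the 10 core genes. A gene was counted as matched if any of its windows held the motif, while the shares of all windows count single windows. The core of the interferon-stimulated response element, GAAANNGAAA on either strand, was in the windows of 0 of these 8 genes, of 10 of the 17 output genes with a window, and of 3.44% of all 32851 windows. Matches are shown for 3 output genes, in capitals, 5′ to 3′ on the gene's strand: Isg15 (chr4:156200851-156200920, minus strand, where 3 matches overlap and the middle is marked), Rsad2 (chr12:26456533-26456602, minus strand) and Ifit3 (chr19:34583377-34583446, plus strand). The matches of Rsad2 and Ifit3 are on the opposite strand.
Isg15: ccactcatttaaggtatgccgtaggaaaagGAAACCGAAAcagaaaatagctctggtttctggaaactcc
Rsad2: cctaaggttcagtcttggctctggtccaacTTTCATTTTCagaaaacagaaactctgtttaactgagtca
Ifit3: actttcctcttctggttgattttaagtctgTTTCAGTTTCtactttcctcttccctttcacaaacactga
The 100 bases before the start of Cgas (chr9:78443238-78443337, minus strand) are shown beside them as a core gene without that motif.
Cgas: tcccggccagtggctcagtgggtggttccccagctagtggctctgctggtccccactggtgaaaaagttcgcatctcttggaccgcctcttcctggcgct
The gamma-activated site TTCNNNGAA, which reads the same on both strands, was in 1 of the 8 core genes, Samhd1, and in 8.30% of all windows. An NF-kB site was in 1 of the 8, Enpp1, and in 4.51% of all windows. These stretches are shown with the match in capitals, for Samhd1 at chr2:157135293-157135346 and for Enpp1 at chr10:24712223-24712292, both on the minus strand.
Samhd1: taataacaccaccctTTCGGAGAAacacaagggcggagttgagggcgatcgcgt
Enpp1: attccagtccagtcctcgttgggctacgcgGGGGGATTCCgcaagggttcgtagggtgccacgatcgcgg
A match describes letters and not a bound site, and a missing match says only that these letters are not in the window.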

How the data were processed

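The values are raw read counts, deposited by the authors as 1 table with a row per Ensembl gene ID. The submitters' processing notes name build mm10 and the tools DESeq2 1.16.1, featureCounts, Subread and HISAT2. The sources used here do not give the tools' roles, the annotation, whether strand was used or how reads shared between genes were treated. Columns named CO and XA were read as vehicle and DMXAA, with their replicate numbers; 0 sample columns were left unassigned. Per the labels' protocols, both a TruSeq and a NEBNext kit were used, not assigned to libraries. Every pair of libraries differed by more than counting noise (chi-square divided by its degrees of freedom, 7.35 to 38.5).

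GENCODE mouse release M21, on the assembly of mm10, gave symbols, coordinates and exon lengths (99.9% of IDs). edgeR 4.0.16 in R 4.3.3 was run with TMM scaling, its default expression filter (16226 genes kept) and group as the only term, two-sided, with p adjusted over all tested genes. Standard errors were the log2 fold change over the square root of F, and 95% intervals used the t distribution. The biological coefficient of variation was 19%. CPM were computed from the counts, and intervals of single counts are exact Poisson. Both edgeR and DESeq2 1.42.0 were tested on simulated data with known fold changes and the same dispersion for every gene. Changes were placed only in genes with an average log2 CPM above 1, a level that Cgas did not reach. At a true absolute log2 fold change of 1, edgeR called 53 and DESeq2 59 of 100 genes. At 2, each called 99 of 100. Of 16026 genes without a change, edgeR called 5 and DESeq2 11.

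The members and all gene lists were chosen with earlier results of these data known. The text names all members, other pathway genes at an unadjusted p below 0.05, Irf3, Irf7, Ifnb1, Cxcl10, Isg15 and Rsad2, and the 3 nearest patterns; Atrip, the genes at 0 and Ifit3, shown for its promoter, were named after their values were seen. The alternatives were DESeq2, RLE size factors, no expression filter, at least 1 CPM in 2 libraries, robust empirical Bayes, a bias-adjusted quasi-likelihood fit, scaling without the 20 most abundant and the mitochondrial genes, a length and GC correction, each library left out in turn, and a block for the replicate number. Exact permutation tests of single values were not used, since 2 libraries against 3 cannot reach a p below 0.05 in them.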

Additional observations from a re-analysis of the deposited data

How the results depend on the processing

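No core gene and no other pathway gene was called under any of the 14 alternatives. The number of genes called over all tested genes was 0 with edgeR, 54 with DESeq2, 34 without an expression filter and 0 to 2 when each library was left out; the 2 calls came without vehicle library 1. The replicate number as a block gave 4 calls; the deviations of same-numbered libraries correlated at 0.075 for number 1 and 0.081 for number 2, which 2 pairs cannot settle, since the deviations of 2 DMXAA libraries mirror each other; the labels do not say that a number marks anything shared. Of 126 log2 fold changes of the core genes under the alternatives, 113 kept their sign and 13 did not, and the cause was not tested. With the block, Ddx41 was at -0.024, Nlrc3 at 0.18 and Cxcl10 at 0.10. With the length and GC correction, Enpp1 was at -0.020. Leaving out 1 library at a time gave -0.052 to 0.56 for Cgas (negative without DMXAA library 1), -0.066 to 0.085 for Ddx41 (negative without DMXAA library 2, vehicle library 1 or vehicle library 3), -0.097 to 0.14 for Tbk1 (negative without DMXAA library 2 or vehicle library 1), -0.068 to 0.17 for Enpp1 (negative without vehicle library 1), -0.0090 to 0.25 for Rnf5 (negative without DMXAA library 1), -0.62 to 0.41 for Nlrc3 (positive without DMXAA library 2 or vehicle library 3) and -0.69 to 1.16 for Cxcl10 (positive without DMXAA library 2 or vehicle library 2). Irf7 passed the threshold without an expression filter (adjusted p = 0.041, edgeR; 0.041 to 1 over its alternatives), and Rsad2 there (0.041) and in DESeq2 (0.0016). At 15 to 29 counts per library, the interval of the Cgas fold change reached past 2-fold.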

Other observations

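Other cell types were unevenly represented in the libraries, by summed marker levels that were not tested. The 8 red blood cell markers summed to 113 and 96.4 CPM in DMXAA and to 346, 246 and 170 CPM in vehicle, with both DMXAA libraries below all vehicle libraries. Slc4a1 gave 59.1 and 65.1 CPM of the DMXAA sums and 63.3, 73.3 and 95.2 CPM of the vehicle sums, and its groups overlapped. The 10 endothelial markers summed to 698 and 771 CPM in DMXAA and to 776, 473 and 688 CPM in vehicle.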
